A study of Homo sapiens with 2 samples.

Results

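Small proline-rich proteins, involucrin and their partners build the cornified envelope, the cross-linked protein shell under the membrane of terminally differentiating squamous cells. The 8 genes described here are the envelope precursors SPRR1A, SPRR1B, SPRR3 and IVL, the cross-linking enzyme gene TGM1, and the squamous epithelial genes SFN, CSTA and TP63. They were chosen by name, with their differences between the arrays already known, among 17687 genes named through the platform annotation. A probe set was found here for 7 of the 8, and the expression of TP63, the master transcription factor of stratified epithelium, is not analysed here.

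Total RNA of MKN1 was measured on 2 arrays; MKN1 is an established cell line from a human gastric cancer of adenosquamous type. One line overexpressed wild-type RHOA from a pBABE vector and the other RHOA Y42C from the same vector, and both were selected with puromycin. The GTPase RHOA sets actin tension in cells, and the Y42C mutation of gastric cancers replaces a tyrosine in it by cysteine. The labels do not say whether either line is a single clone, and no parental or empty-vector array was analysed here, so the data cannot tell in which line a level moved. Each line has 1 array and so no replicate, and no value below carries an error or a test.

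Envelope precursors are made late in differentiation, when calcium and stress signals switch on a cluster of genes called the epidermal differentiation complex on chromosome 1. Transglutaminase 1, the TGM1 product, links involucrin to other proteins at the membrane, and the small proline-rich proteins act as short flexible bridges between the linked proteins. Cystatin A, the CSTA product, is a cysteine protease inhibitor that is also built into the envelope. Stratifin, or 14-3-3 sigma, the SFN product, is an epithelial adaptor protein and a target of the p53 family.

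The sequences just before the start sites of the 3 small proline-rich genes and of IVL are shown because these genes lie close together and because AP-1 sites in this window are known to drive them in keratinocytes. They are the 250 bases upstream of each start, from RefSeq on build GRCh38.p14, all on the plus strand: chr1:152983831-152984080 for SPRR1A, chr1:153030953-153031202 for SPRR1B, chr1:153001499-153001748 for SPRR3 and chr1:152908296-152908545 for IVL. Capitals mark every match to the AP-1 letters TGANTCA, which read the same on both strands.
SPRR1A: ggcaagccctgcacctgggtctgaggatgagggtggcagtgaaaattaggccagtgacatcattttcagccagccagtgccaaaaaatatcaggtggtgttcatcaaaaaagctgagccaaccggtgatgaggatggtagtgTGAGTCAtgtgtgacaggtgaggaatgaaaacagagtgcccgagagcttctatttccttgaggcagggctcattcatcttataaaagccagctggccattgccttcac
SPRR1B: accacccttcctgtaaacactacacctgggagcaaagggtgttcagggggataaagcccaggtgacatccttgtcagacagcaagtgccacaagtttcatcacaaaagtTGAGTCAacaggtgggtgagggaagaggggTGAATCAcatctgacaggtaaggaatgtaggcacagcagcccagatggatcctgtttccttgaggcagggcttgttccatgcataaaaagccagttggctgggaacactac
SPRR3: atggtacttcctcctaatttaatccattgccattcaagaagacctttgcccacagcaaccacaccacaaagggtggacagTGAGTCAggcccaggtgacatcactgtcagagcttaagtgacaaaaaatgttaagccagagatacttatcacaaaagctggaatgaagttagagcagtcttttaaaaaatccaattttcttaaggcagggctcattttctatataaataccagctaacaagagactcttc
IVL: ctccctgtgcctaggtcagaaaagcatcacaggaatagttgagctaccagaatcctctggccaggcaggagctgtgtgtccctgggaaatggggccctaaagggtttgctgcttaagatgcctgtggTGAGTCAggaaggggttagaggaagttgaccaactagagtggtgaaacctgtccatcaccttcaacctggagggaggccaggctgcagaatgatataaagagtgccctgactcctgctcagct

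SPRR1A, SPRR3 and IVL each held 1 AP-1 match, and SPRR1B held 2 that did not overlap. The SPRR1A match lay 108 to 102 bases before the start. The matches of SPRR1B lay at 141 to 135 and at 111 to 105 bases, the SPRR3 match at 170 to 164 and the IVL match at 123 to 117. SFN also held 1 match, at 170 to 164 bases, with the letters TGATTCA, and TP63 held 0 in the window searched. Only 1 window per gene was searched, so any other start site of TP63 or of the other genes was not covered. RefSeq promoters were found for 6 of the 8 genes, all but TGM1 and CSTA. Of 27305 promoters of this length, 1801 (6.6%) held a match. A match is a string of letters and no evidence of binding.

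SPRR1A and SPRR1B are close relatives, and their upstream windows were alike. In a global alignment 65.0% of columns were identical, against 53.6% for SPRR1A with SPRR3 and 51.4% for SPRR1A with IVL. Their longest shared run was 18 bases, TTTCCTTGAGGCAGGGCT, and 2 of 27305 promoters held it, those of SPRR1A and SPRR1B themselves. The TATA letters TATAAA stood 29 to 24 bases before the start in SPRR1A and SPRR3 and 30 to 25 bases before it in IVL. Searched on both strands, TATAAA was in 11.1% of all promoters and in 0 places of the SPRR1B window.

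All values are the deposited signals, taken as log2, and differences are Y42C minus wild-type. A minimum was set on each array at the 95th percentile of 349 olfactory receptor genes, which are presumed silent in gastric cells: 5.17 for wild-type and 5.14 for Y42C. At least 1 array reached its minimum for 11802 genes, and for 6 of the 7 measured members. For a gene that reached it on 1 array only, the fold was computed against the minimum of the other array and is given as at least that fold.

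SPRR1A and SPRR1B differed most among the members. SPRR1A (probe set TC0100010017.hg.1) had a signal of 5.78 in the wild-type array and 12.86 in the Y42C array. It was near the minimum in the first and far above it in the second, a 135-fold difference. In bulk RNA, a change in the share of cells that make a transcript and a change in the amount per cell cannot be told apart. SPRR1B (TC0100010020.hg.1) was at 4.30 in wild-type and 9.70 in Y42C. Its wild-type value was below the minimum, so the Y42C array held at least 23.1-fold more signal. Ordered from the most positive difference, SPRR1A and SPRR1B stood at places 1 and 2 of the 11802 genes. The place of SPRR1B rests on a wild-type value below the minimum, and its difference of 5.40 was 4.53 with that value raised to the minimum. They may share probes, and their signals are then not separate observations.

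SPRR3, the small proline-rich gene typical of oesophageal and oral epithelium, was at 3.41 in wild-type and 5.31 in Y42C. Its deposited values differed by 1.90, but the Y42C value lay only 0.174 above the minimum, so the supported fold was at least 1.10. IVL, the involucrin scaffold on which the envelope is assembled, was at 4.50 in wild-type and 3.76 in Y42C. Both values were below the minimum, and no fold is given. IVL was thus not well above background in either line, while SPRR1A and SPRR1B were bright in the Y42C line.

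TGM1 was at 4.54 in wild-type and 5.14 in Y42C. The Y42C value passed the minimum by 0.004, and no fold can be given. CSTA was at 4.03 in wild-type and 5.19 in Y42C, and it was at least 1.01-fold higher. Like SPRR3, these genes counted as above the minimum only through the Y42C array, by margins under 0.2.

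SFN was bright in both lines, at 14.04 in wild-type and 15.81 in Y42C. It was 3.41-fold brighter in the Y42C array and stood at place 180 of 11802. Of the members, SPRR1A and SFN alone were above the minimum on both arrays.

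**Figure D1:**
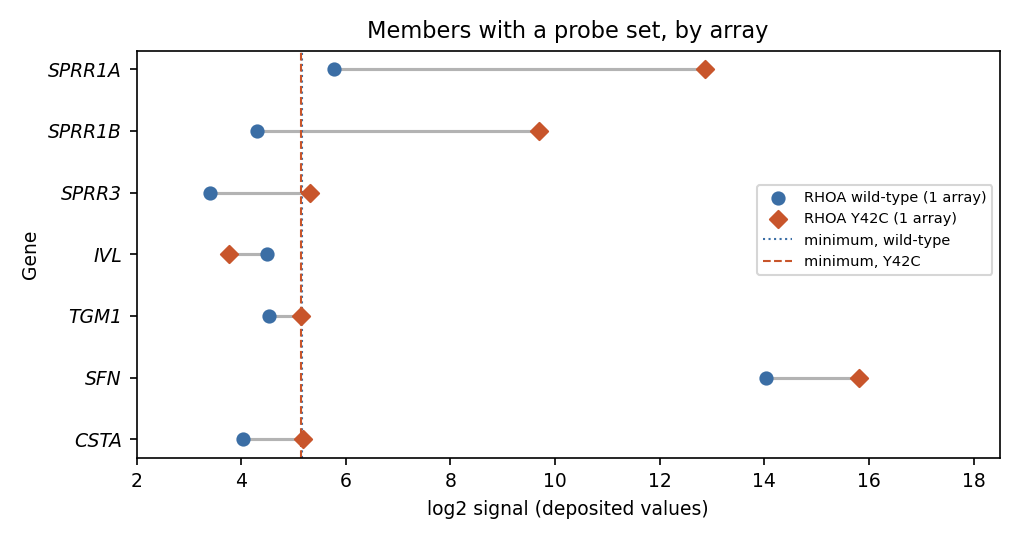
Log2 signal of the 7 members with a probe set, 1 circle for the wild-type array and 1 diamond for the Y42C array; the dotted and dashed lines are the minimums, 5.17 and 5.14. SPRR1A, SPRR1B and SFN reach clearly above the minimum, while SPRR3, TGM1 and CSTA touch it in the Y42C array and IVL stays below it in both.

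By the deposited values, 5 of the 6 members that reached the minimum had a Y42C signal at least 2-fold the wild-type one, against 7.46% of all 11802 genes, and 0 were at least 2-fold lower, against 9.80%. Nothing is read from this count, because the members were picked on these values. The median difference was 1.84 over the 6 members and 1.77 over the 7 with a probe set, and it was -0.07 over all genes. A gene that enters through the Y42C array alone is nearly bound to be higher there, the minimums being 5.17 and 5.14. Of 465 genes below the minimum in wild-type and at or above it in Y42C, 27.1% were at least 2-fold higher. Once low values were raised to the minimum, 3 members passed 2-fold: SPRR1A, SPRR1B and SFN.

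**Figure D2:**
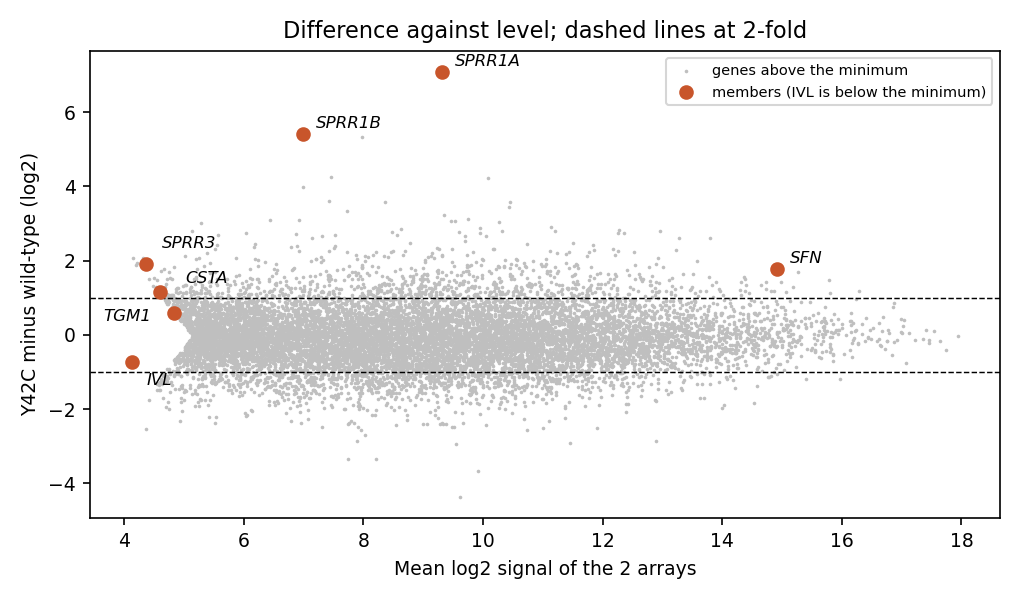
Difference (Y42C minus wild-type, log2) against the mean log2 signal of both arrays for the 11802 genes above the minimum (grey) and for the 7 measured members (orange, labelled). SPRR1A and SPRR1B lie above all other genes at 7.08 and 5.40, SFN lies at 1.77 among bright genes, and the remaining members lie at the dim edge.

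The genes around the members on chromosome 1 were followed next, taking the epidermal differentiation complex as the 63 protein-coding genes from S100A10 to S100A1 in the RefSeq order. Of these 61 had a value and 25 were above the minimum, 3 of them members. Of the 22 that are not members, 11 passed 2-fold towards Y42C and 1 towards wild-type, against 7.46% and 9.80% of all genes, and the median difference was 0.98. Of these 22, 6 entered through the Y42C array alone and 4 of the 6 passed 2-fold, where 27.1% of all such genes did. Among the 16 above the minimum on both arrays, 7 passed it towards Y42C and 1 towards wild-type, with a median of 0.73. SPRR4, SPRR1A, SPRR3, SPRR1B and SPRR2D are consecutive genes in this order, and each was above the minimum in the Y42C array. SPRR4 (4.21 and 5.21) and SPRR2D (4.21 and 5.28) passed it only there and by little, at least 1.03-fold and 1.08-fold. The next SPRR2 genes stayed below it on both arrays: SPRR2A was at 4.10 and 4.75, SPRR2B at 3.57 and 4.77, SPRR2E at 4.54 and 4.87, SPRR2F at 3.50 and 3.33, and SPRR2G at 3.50 and 3.56. Within the small proline-rich cluster, SPRR1A and SPRR1B alone lay more than 1 log2 unit above the minimum on an array.

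Farther out in the complex, FLG, which encodes the keratin-bundling protein filaggrin, had signals of 8.26 in wild-type and 10.38 in Y42C, 4.35-fold apart. The late cornified envelope genes LCE1C, LCE1E and LCE3B were 2.36-fold, 2.06-fold and 2.23-fold higher, and genes of this family may share probes. LCE4A was 1.56-fold lower (7.30 and 6.66), LCE2B passed the minimum only in Y42C (4.24 and 5.20), and the other 13 of 18 late cornified envelope genes with a value were below it on both arrays. PGLYRP4, a peptidoglycan recognition gene, was at least 1.43-fold higher, and KPRP at least 1.01-fold. LORICRIN, the major envelope protein of skin, was below the minimum on both arrays (4.62 and 4.96). The calcium-binding S100 genes of the same interval had 3 of 11 at least 2-fold higher, S100A4 (5.31-fold), S100A13 (2.19-fold) and S100A2 (2.10-fold), and S100A3 was 2.62-fold lower. The median of these 11 S100 genes was -0.11.

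**Figure D3:**
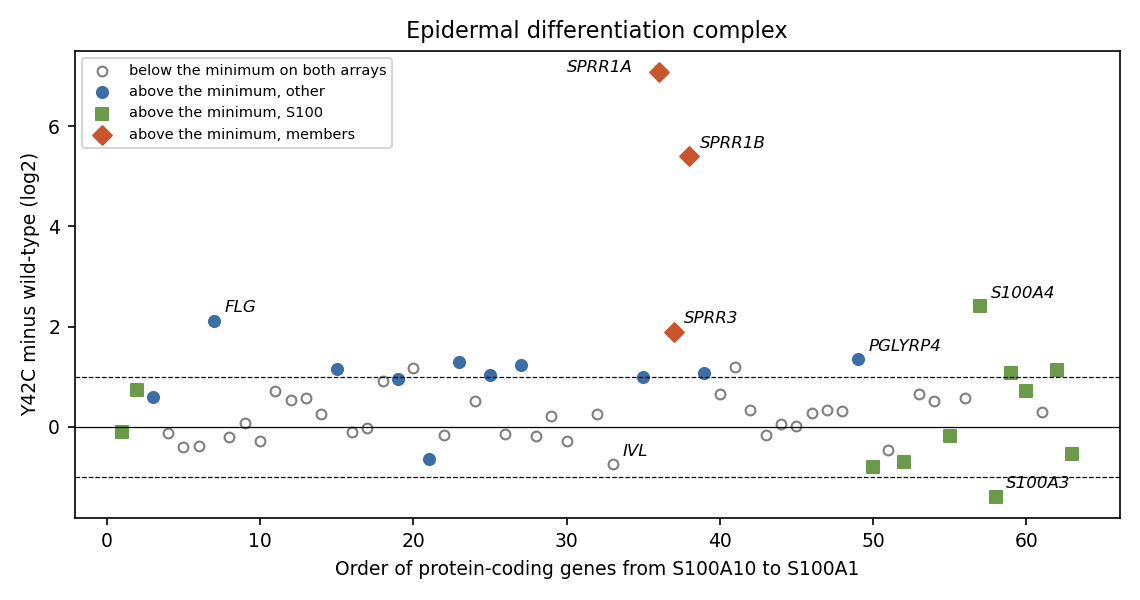
Difference (Y42C minus wild-type, log2) of the genes of the epidermal differentiation complex in chromosome order; open circles are below the minimum on both arrays, filled symbols above it on at least 1. SPRR1A and SPRR1B stand at 7.08 and 5.40, and no other gene of the complex exceeds the 2.41 of S100A4.

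Envelope precursors and linkers other than the members were described as a list. Of 37 with a value, 25 were below the minimum on both arrays. Of the other 12, 8 passed 2-fold with the Y42C signal higher and 0 with it lower, the median difference being 1.04, and 5 of the 8 above the minimum on both arrays were higher. Over all genes the shares were 7.46% and 9.80%, and 27.1% for genes that entered through the Y42C array alone. The latter hold SPRR4, SPRR2D and KPRP, whose supported folds were at least 1.03, 1.08 and 1.01. FLG, LCE1C, LCE1E, SPRR4, SPRR2D and KPRP were already counted in the epidermal differentiation complex, so the list is not a separate set. PI3, or elafin, a protease inhibitor that is cross-linked into the envelope, was 6.06-fold higher (12.50 and 15.10). PPL, the plakin that ties the envelope to keratin filaments, was 2.06-fold higher (8.44 and 9.48). Its partner EVPL (6.23 and 5.53) and the desmosomal plakin DSP (13.93 and 13.48) had differences of -0.70 and -0.45.

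Each single-gene member was then set beside its protein family. Among the 14-3-3 genes, all 7 of which were above the minimum on both arrays, SFN had a difference of 1.77. The other 6, which are broadly expressed adaptors, lay between -0.46 (YWHAQ) and 0.17 (YWHAZ), and 0 of them passed 2-fold. Over all genes 7.46% passed 2-fold towards Y42C and 9.80% towards wild-type, so 0 among 6 genes is near those shares. SFN was picked with its difference known. Of 8 transglutaminase genes, 3 were above the minimum and 0 passed 2-fold, which for so few genes is also near those shares. TGM2, the tissue transglutaminase, was bright at 13.25 and 13.91, and TGM6 was at 7.08 and 7.47. TGM3, which acts beside TGM1 in the envelope, was below the minimum at 4.51 and 4.99.

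Of 9 cystatin genes, 5 were above the minimum. CSTA had a difference of 1.16, but it passed the minimum only in Y42C and by little, so the supported fold was at least 1.01. CSTB, the other cytosolic inhibitor of this kind, was bright in both arrays (13.65 and 13.21) with a difference of -0.44. CST3, the secreted cystatin C, was 1.78-fold higher (10.87 and 11.70), and CST2 lay at -0.40. CST7, which also passed the minimum only in Y42C, lay at 0.21. CST6, cystatin M/E, which regulates cross-linking in skin, was below the minimum at 4.85 and 4.91.

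**Figure D4:**
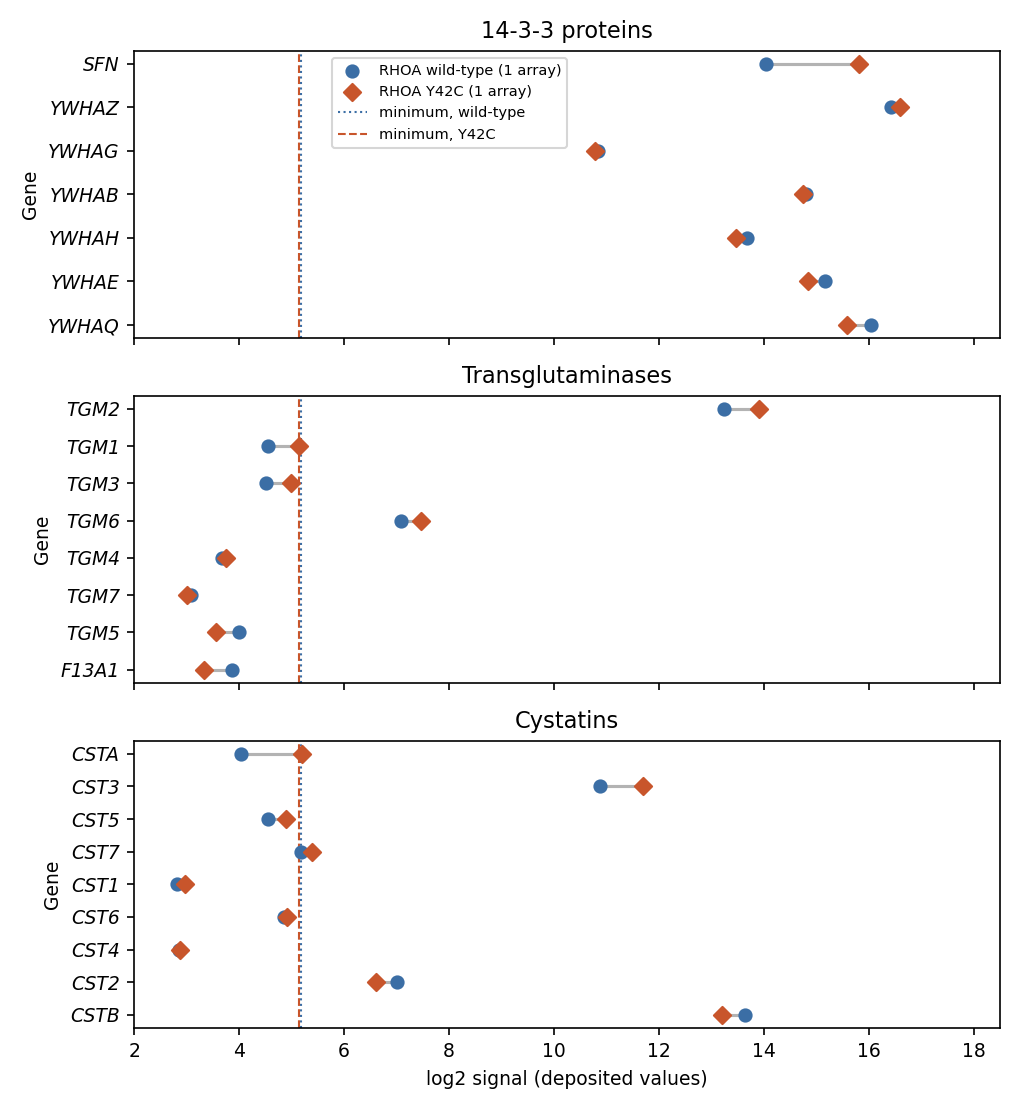
Log2 signal in the wild-type array (circles) and the Y42C array (diamonds) for the 14-3-3, transglutaminase and cystatin genes, with the minimums as vertical lines. SFN is the 14-3-3 gene with a wide gap, from 14.04 to 15.81, while TGM1 and CSTA end at the minimum.

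Basal squamous genes covered a wide range of signal. Of 23 with a value, 18 were above the minimum, 17 of them on both arrays. Among the bright ones in both lines, KRT14, a keratin of basal cells, was at 14.32 and 14.52, TRIM29 at 14.85 and 15.13, and SERPINB5 at 15.71 and 15.66. KRT5, the partner of KRT14, was at 9.48 and 8.82. Of the 18 genes above the minimum, 4 passed 2-fold towards Y42C and 0 towards wild-type, and the median difference was 0.47, against 7.46%, 9.80% and -0.07 over all genes. The 4 were the p63 target CLCA2 (at least 2.56-fold), the integrin activator FERMT1 (2.93-fold), the hemidesmosome integrin ITGB4 (2.53-fold) and S100A2. CLCA2 passed the minimum only in the Y42C array. Of the 17 above the minimum on both arrays, 3 passed 2-fold towards Y42C and 0 towards wild-type, with a median difference of 0.35. TP73, a paralogue of TP63, was below the minimum at 5.12 and 5.05.

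Genes of suprabasal differentiation differed in both directions. Of 21 above the minimum, 7 passed 2-fold towards Y42C and 5 towards wild-type, and the median difference was 0.13. Over all genes the shares were 7.46% and 9.80% and the median was -0.07. Of the 18 above the minimum on both arrays, 6 passed 2-fold towards Y42C and 4 towards wild-type. KRT10, the keratin of cells that have left the basal layer, was 7.52-fold higher (9.68 and 12.59). The desmosomal cadherin DSC2 was 4.76-fold higher, LYPD3 4.11-fold, the lipoxygenase of the skin barrier ALOXE3 4.03-fold, the desquamation protease KLK7 3.10-fold and the cornified envelope gene CNFN 2.69-fold, and KLK5 was at least 1.75-fold higher. The squamous cell carcinoma antigens SERPINB4 and SERPINB3, which may share probes, were 20.5-fold and 12.8-fold lower. The protease inhibitor SLPI was 3.43-fold lower, EMP1 2.43-fold, and the cadherin DSG1 at least 1.36-fold. KRT1, the partner of KRT10, was below the minimum at 5.06 and 4.20. Higher SPRR1A and SPRR1B thus stood beside some higher and some lower genes of the same differentiation stage.

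Transcription factors of squamous differentiation passed 2-fold in few cases. Of 18 above the minimum, 2 passed it towards Y42C and 1 towards wild-type, which is near the 7.46% and 9.80% of all genes, and the median difference was 0.13. OVOL2 was 2.57-fold higher and the ETS factor EHF at least 1.63-fold, and the Notch receptor gene NOTCH2 was 2.51-fold lower. KLF4, a barrier-forming factor, was at 9.88 and 10.59. GRHL3 (4.43 and 4.25) and ZNF750 (2.99 and 2.77), drivers of terminal differentiation, were below the minimum.

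AP-1 and ETS proteins are known to act on small proline-rich gene promoters. The list of such factors used here also holds SP1 and KLF4, which are of neither kind. It shares KLF4, ELF3 and EHF with the squamous transcription factors above. Of its 17 genes above the minimum, 4 passed 2-fold towards Y42C and 0 towards wild-type, and the median difference was 0.48. Over all genes the shares were 7.46% and 9.80% and the median was -0.07. Of the 15 above the minimum on both arrays, 3 passed 2-fold towards Y42C. FOSL1, an AP-1 subunit, was 6.68-fold higher (10.89 and 13.63), FOSB 3.97-fold (6.14 and 8.13) and ETS1 2.51-fold (10.61 and 11.94). EHF, the fourth, was below the minimum in wild-type and at least 1.63-fold higher. JUN was at 5.77 and 6.68, JUNB at 10.84 and 10.45, FOS at 8.20 and 8.26, and ELF3 at 5.59 and 4.88. Among 381 genes above the minimum whose upstream window held TGANTCA, 10.2% passed 2-fold towards Y42C and 10.2% towards wild-type, and the median difference was -0.01. Among 9322 genes without it the shares were 6.96% and 10.1%, and the median difference was -0.09. The genes with a match include the members SPRR1A, SPRR1B, SPRR3 and SFN, which were picked with their differences known. Of these members, SPRR1B and SPRR3 passed the minimum only in the Y42C array. The shares with and without a match are a description, and the part of the AP-1 and ETS factors in the SPRR1A and SPRR1B signals was not tested.

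**Figure D5:**
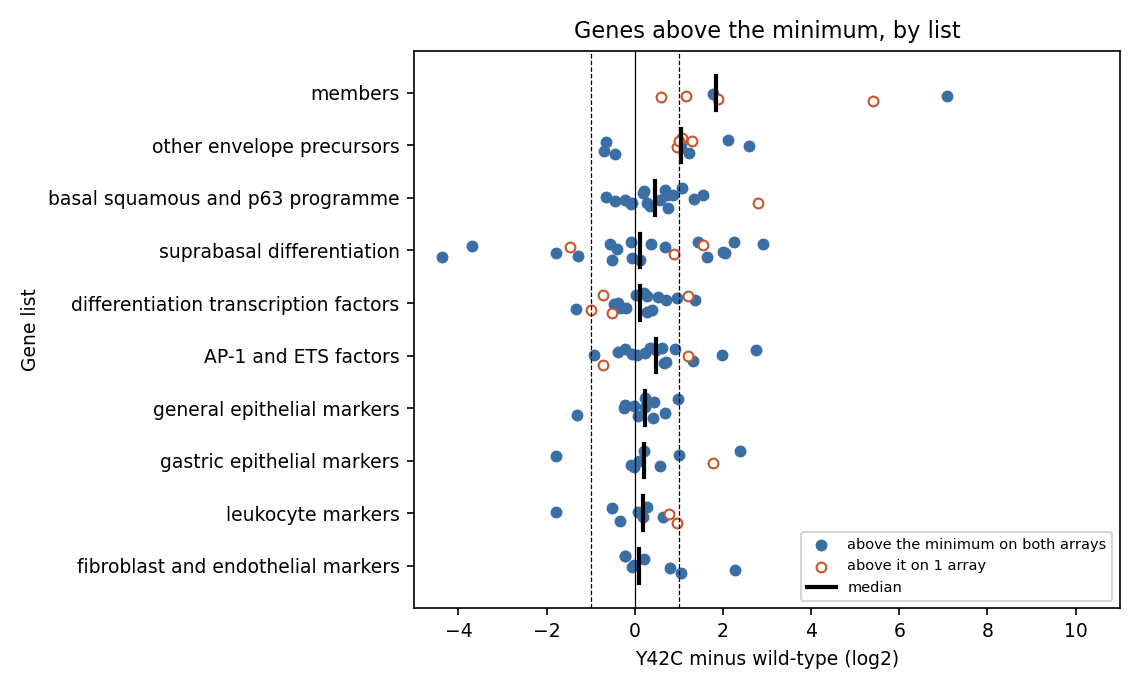
Difference (Y42C minus wild-type, log2) of the genes above the minimum in the member list and 9 others, the protein families being plotted separately; filled points are above the minimum on both arrays, open points on 1, bars are medians and dashed lines mark 2-fold. The members, picked with these differences known, have a median of 1.84 and other envelope precursors 1.04. The other lists plotted here have medians between 0.09 and 0.48. With low values set to the minimum, the medians of the members and of other envelope precursors were 0.95 and 0.07.

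Markers of the labelled cell type and of other cells were read on the same arrays. Of 12 general epithelial markers with a value, 11 were above the minimum, among them KRT8 (17.96 and 17.94), KRT18 (16.96 and 17.03) and EPCAM (13.30 and 13.53). CLDN7 was 2.46-fold lower, and CDH1, the epithelial cadherin, was below the minimum at 3.92 and 3.86. Of 22 gastric markers 9 were above the minimum, with a median difference of 0.22. By the deposited values 3 passed 2-fold towards Y42C and 1 towards wild-type, against 7.46% and 9.80% of all genes. PSCA was 5.21-fold and CTSE 2.01-fold higher, ANXA10 at least 1.30-fold higher and VSIG1 3.43-fold lower. GATA4, ATP4A, GATA6, SOX2 and CLDN18 had differences between -0.08 and 0.57. MUC5AC, TFF1 and GKN1, which define gastric surface cells, were below the minimum on both arrays. Of 20 leukocyte markers 9 were above the minimum, 6 of them higher and 3 lower in Y42C, with a median difference of 0.18. Their list had a log2 summed signal of 11.20 in wild-type and 10.84 in Y42C. CD68, the brightest of them, was at 10.66 and 10.15, and CD14 was 3.43-fold lower. CD3D, CD3G and MS4A1 were among those below the minimum, and PTPRC (4.61 and 5.39) and CD3E (4.70 and 5.67) passed it only in Y42C. CD79A (6.73 and 6.81), CD79B (5.78 and 5.96), NKG7 (6.13 and 6.77), TYROBP (6.30 and 5.96) and CSF1R (6.14 and 6.42) were above it on both arrays. Of 15 fibroblast and endothelial markers 8 were above the minimum, 4 of them higher and 4 lower in Y42C, with a median difference of 0.09. The log2 summed signal of the list was 12.45 in wild-type and 14.47 in Y42C, and LUM, at 12.09 and 14.37, made up most of it. COL1A2 was 2.06-fold higher, VWF was 1.74-fold higher (6.08 and 6.88), and TEK had a difference of 0.20. COL1A1, ERG, PECAM1 and ACTA2 had differences between -0.22 and -0.02. DCN, PDGFRA, CDH5 and FAP (3.50 and 4.67) were among those below the minimum. The part of these markers in the member differences was not tested.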

How the data were processed

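Total RNA of the 2 MKN1 lines was hybridised to 1 Affymetrix array each. The deposited values are probe set summaries, taken as log2 signal, which the authors made with Affymetrix Expression Console per the submitters' processing notes. The sources used here do not give its version, background correction, summary, normalization or log base. The values lay between 2.23 and 18.16, and every fold assumes log2. The array medians were 6.42 and 6.36, and the values were used as deposited. Of 21448 probe sets 17709 had 1 symbol, 0 had several and 3739 are unnamed here, and probe sets of a gene were averaged (20 genes). The number of arrays limits the precision.

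Members and lists were chosen with earlier results of these data known. All members were named, with list genes at least 2-fold apart and family members, and further list genes were named after their values were seen. The counting code was tested on simulated data with known changes, which checks the code and gives no error rate for these arrays. Promoters were aligned with Biopython 1.88 (match 1, mismatch -1, gap opening -3, extension -1). Computations ran in Python 3.11.15 with NumPy 2.4.6 and pandas 2.3.3, the lowess in statsmodels 0.14.6, and plots in matplotlib 3.10.9. The alternatives tried were other minimums and thresholds, the brightest probe set, quantile normalization, centring, a lowess trend on level taken out (span 0.3), and 16 added before the log.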

Additional observations from a re-analysis of the deposited data

How the results depend on the processing

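Of the members, 5 passed 2-fold towards Y42C. The count was 3 with the 99th percentile of olfactory receptor genes as the minimum and 3 with the median of the array as the minimum. It was 3 with low values raised to the minimum, and 4 with 16 added before the log. At a 4-fold threshold it was 2, and at a 1.5-fold threshold it was 6. The count of members at least 2-fold lower was 0 under each of the 11 alternatives run for it. The median difference of the members, 1.84, was 5.40 under both stricter minimums, which leave SPRR1A, SPRR1B and SFN, 0.95 with low values raised to the minimum, and 2.99 as a mean. Across the alternatives run for single members, SPRR1A lay between 6.71 and 7.21, SPRR1B between 4.53 and 5.51 and SFN between 1.76 and 1.83. SPRR3 lay between 0.14 and 1.96, CSTA between 0.02 and 1.22 and TGM1 between -0.03 and 0.66, their lowest values being those with low values set to the minimum, so signal over background limits these genes. A movement of a difference was judged against the SD of olfactory receptor genes, 0.44, in place of a replicate SD. A movement of a count was judged by its ratio to the main count. Other envelope precursors had 5 rather than 8 genes at least 2-fold higher under both stricter minimums, with low values set to the minimum and with a constant of 16 added. Of the squamous transcription factors, 1 rather than 2 passed 2-fold towards Y42C under those same 4 alternatives, and 2 rather than 1 towards wild-type under quantile normalization and with the trend on level removed. The median of other envelope precursors was 0.07 with low values set to the minimum and 0.25 with no minimum; the alternatives for lists outside the members were added after seeing the data. No paired analysis was possible because each group has 1 array.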
